A study of Mus musculus with 27 samples.

Results

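The genes described here are 10 of the 38168 features measured in mouse retina. They mark the retinal vessels or take part in the VEGF and Norrin signals that vessels respond to: Vegfa, Kdr, Flt1, Pecam1, Cdh5, Cldn5, Pdgfrb, Ndp, Fzd4 and Tspan12. They were chosen by gene symbol, and all 10 were found. Vegfa has 2 entries, and the one with the higher mean was used. The samples were whole retinas of wild type C57BL/6J mice, with no other allele and no treatment, at embryonic days E14 and E17 (3 libraries each) and postnatal days P1 (4), P6 (3), P15 (4), P28 (4) and P60 (6), 27 in all. All were collected in the light phase from animals on a cycle of light and dark. The labels give 3 retinas per library, whereas the methods describe larger pools up to P28 and, at P60, pools as well as single mice without saying which libraries these are. Retinas up to P1 came from both sexes and later ones from males, so that sex and the younger ages cannot be fully told apart.

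The mouse retina is nearly free of vessels at birth. A superficial plexus then spreads from the optic nerve head over a template of astrocytes, and sprouts dive to form the deeper layers before the network is remodeled. VEGF-A from neurons and glia drives endothelial growth through VEGFR2, while VEGFR1 binds the same ligand and limits its supply. Norrin, secreted by Müller glia, acts on the endothelial receptor Frizzled-4 with the co-receptor Lrp5 and the tetraspanin Tspan12 to raise beta-catenin, and this signal is needed for the deep vessels and for the blood-retina barrier.

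Values are CPM, the reads of a gene relative to all reads of its library. Libraries held 7077781 to 11332323 reads (median 7969873), so that 1 read was worth 0.0882 to 0.141 CPM. Differences are log2 fold changes on the log2(CPM + 1) scale with their standard error (SE), which understates changes of low genes, and were tested with limma over all 27 libraries. A gene was called changed at an adjusted p under 0.05 (Benjamini-Hochberg over 31760 features, those that reached 1 CPM in 3 or more libraries). All 10 genes passed that filter. The p-values measure the spread between these libraries, most of which are pools. A few libraries stood apart from the others of their age. The chi-square per degree of freedom between the reads of P15 replicate 4 and the other P15 libraries was 5.38 to 8.22, against 1.72 to 2.43 among those 3. At P60 it was 8.36 to 21.5 between replicates 1 and 2 and replicates 3 to 6, against 3.29 between the former and 4.62 to 9.31 among the latter. Results for the 10 genes that changed without such libraries are given with and without them. For genes of the other lists, limma calls are given with all libraries only.

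The receptors Kdr and Flt1 and the tight junction gene Cldn5, all endothelial genes by repute, followed 3 different courses over the 7 ages. Their promoters are shown because of that contrast, as the 250 bases before the RefSeq start of transcription on GRCm38.p6, read 5′ to 3′ on the strand of the gene. Capitals mark GGAA, the core bound by ETS factors, or its reverse complement TTCC. The Kdr promoter lies at chr5:75978456-75978705 (minus strand), that of Flt1 at chr5:147726012-147726261 (minus strand) and that of Cldn5 at chr16:18776597-18776846 (plus strand).
Kdr: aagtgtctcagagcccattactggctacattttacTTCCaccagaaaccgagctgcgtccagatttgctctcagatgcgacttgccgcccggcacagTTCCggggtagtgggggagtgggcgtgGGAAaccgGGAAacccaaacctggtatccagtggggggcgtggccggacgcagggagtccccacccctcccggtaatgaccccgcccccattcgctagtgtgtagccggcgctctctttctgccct
Flt1: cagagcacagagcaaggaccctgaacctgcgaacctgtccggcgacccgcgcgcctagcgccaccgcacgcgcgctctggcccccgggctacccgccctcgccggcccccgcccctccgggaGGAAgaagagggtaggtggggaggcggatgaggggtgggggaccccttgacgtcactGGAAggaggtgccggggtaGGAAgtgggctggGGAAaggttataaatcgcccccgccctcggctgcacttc
Cldn5: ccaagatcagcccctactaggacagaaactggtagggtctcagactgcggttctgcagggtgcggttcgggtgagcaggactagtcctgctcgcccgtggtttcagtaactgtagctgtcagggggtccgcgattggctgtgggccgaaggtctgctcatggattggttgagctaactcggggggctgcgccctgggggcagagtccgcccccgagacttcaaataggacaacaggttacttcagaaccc
The Kdr and Flt1 windows each held 4 matches to GGAA on either strand, whereas the Cldn5 window held 0. Of 32851 promoter windows of this length, 93.4% held at least 1 match, with a median of 3. The windows of Ndp, Fzd4 and Tspan12 did not hold CTTTGA (reverse complement TCAAAG), the core bound by TCF and LEF factors and present in 13.8% of all windows. RefSeq windows were found for 7 of the 10 genes, and Pecam1, Cdh5 and Pdgfrb had none in the table.

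Vegfa encodes the main ligand of vessel growth and lies at chr17:46016993-46032369 (GENCODE annotation of GRCm38, the build of all gene positions here, minus strand). It was at 124, 122 and 164 CPM at E14, at 231, 248 and 274 CPM at E17, and at 158, 138, 131 and 118 CPM at P1. The 3 libraries at P6 had 246, 218 and 239 CPM, those at P15 had 186, 224, 260 and 449 CPM, and those at P28 had 158, 166, 169 and 149 CPM. At P60 the lowest was 196, the median 275 and the highest 359 CPM. Vegfa thus went up and down several times rather than following 1 direction, and the libraries of E17 lay above those of both E14 and P1 without overlap. It rose from E14 to E17 (log2 fold change 0.88, SE 0.20, adjusted p = 0.0022 by limma), fell to P1 (-0.88, SE 0.19, adjusted p = 0.0015) and rose again to P6 (0.78, SE 0.19, adjusted p = 0.001). From P15 to P28 it fell (-0.71, SE 0.17, adjusted p = 0.017). That fall was not called without P15 replicate 4, the library at 449 CPM (-0.46, adjusted p = 0.095), nor without P28 replicate 4 (-0.68, adjusted p = 0.064).

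From P28 to P60 Vegfa rose (0.70, SE 0.16, adjusted p = 0.0077 by limma). The rise depended on which P60 libraries were used. It was 0.89 with replicates 3 to 6 alone (adjusted p = 1.5e-05) and 0.33 with replicates 1 and 2 alone (adjusted p = 0.45), and it was not called when only the libraries of these 2 ages were fitted (adjusted p = 0.077). Over the whole period the difference was small. From the embryonic ages (mean of E14 and E17) to the mature ages (mean of P15, P28 and P60) it was 0.27 (SE 0.12, adjusted p = 0.039), and the 6 embryonic libraries at 122 to 274 CPM overlapped the 14 mature ones at 149 to 449 CPM. Over the alternatives tried this adjusted p ran from 0.0037 to 0.17, and the rise was not called under 12 of them. These were the replicate block (0.17), fitting the compared ages only, summing both entries (0.23), using P60 replicates 1 to 2 (0.15), and leaving out any 1 of 8 libraries (E14 replicates 1 and 2, E17 replicates 1 and 2, P15 replicate 4, P28 replicates 2 and 3, and P60 replicate 5), with values of 0.19 to 0.27. The second Vegfa entry was lower in every library, at 10.3 to 26.9 CPM.

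Kdr encodes VEGFR2, the principal signaling receptor for VEGF-A (chr5:75932827-75978458, minus strand). Its course peaked at birth. The E14 libraries had 173, 159 and 168 CPM, the E17 libraries 306, 328 and 307 CPM, and the P1 libraries 482, 411, 463 and 472 CPM. At P6 the values were 232, 246 and 238 CPM, at P15 120, 119, 118 and 139 CPM, and at P28 138, 125, 130 and 145 CPM. The P60 libraries ran from 109 to 128 CPM with a median of 120 CPM. Every neighboring pair of ages up to P15 was without overlap, whereas the 3 mature ages overlapped. Kdr rose from E14 to E17 (0.91, SE 0.08, adjusted p = 3.3e-10 by limma) and to P1 (0.54, SE 0.08, adjusted p = 4.8e-06), then fell to P6 (-0.93, SE 0.08, adjusted p = 6.6e-12) and to P15 (-0.95, SE 0.08, adjusted p = 1.3e-11). P1 was 3.66-fold above the mature mean. At P1 the endothelial genes Pecam1 and Cdh5 were only at 1.23 to 2.15 and 0.118 to 1.02 CPM. Which cells of the retina held the Kdr RNA was not tested.

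Flt1, which encodes VEGFR1 (chr5:147561604-147726011, minus strand), ran the other way. It had 2.50, 2.74 and 1.16 CPM at E14, 3.17, 3.00 and 2.69 CPM at E17, and 2.33, 3.91, 2.71 and 2.72 CPM at P1. It then reached 26.0, 22.9 and 23.4 CPM at P6, 61.8, 60.4, 66.4 and 75.6 CPM at P15, and 72.3, 68.9, 66.4 and 66.6 CPM at P28. At P60 it ran from 69.8 through a median of 77.1 to 86.5 CPM. The 3 youngest ages overlapped each other, and P6 stood between them and the mature ages without overlap. Flt1 rose from P1 to P6 (2.69, SE 0.15, adjusted p = 4.9e-16 by limma) and from P6 to P15 (1.41, SE 0.15, adjusted p = 4e-09). The mature mean was 28.3 times the embryonic mean. Per kilobase of annotated exon, which allows levels of different genes to be compared, Kdr was at 50.6 and Flt1 at 0.216 CPM per kb at P1, and at 13.2 and 5.81 CPM per kb at P60.

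**Figure D1:**
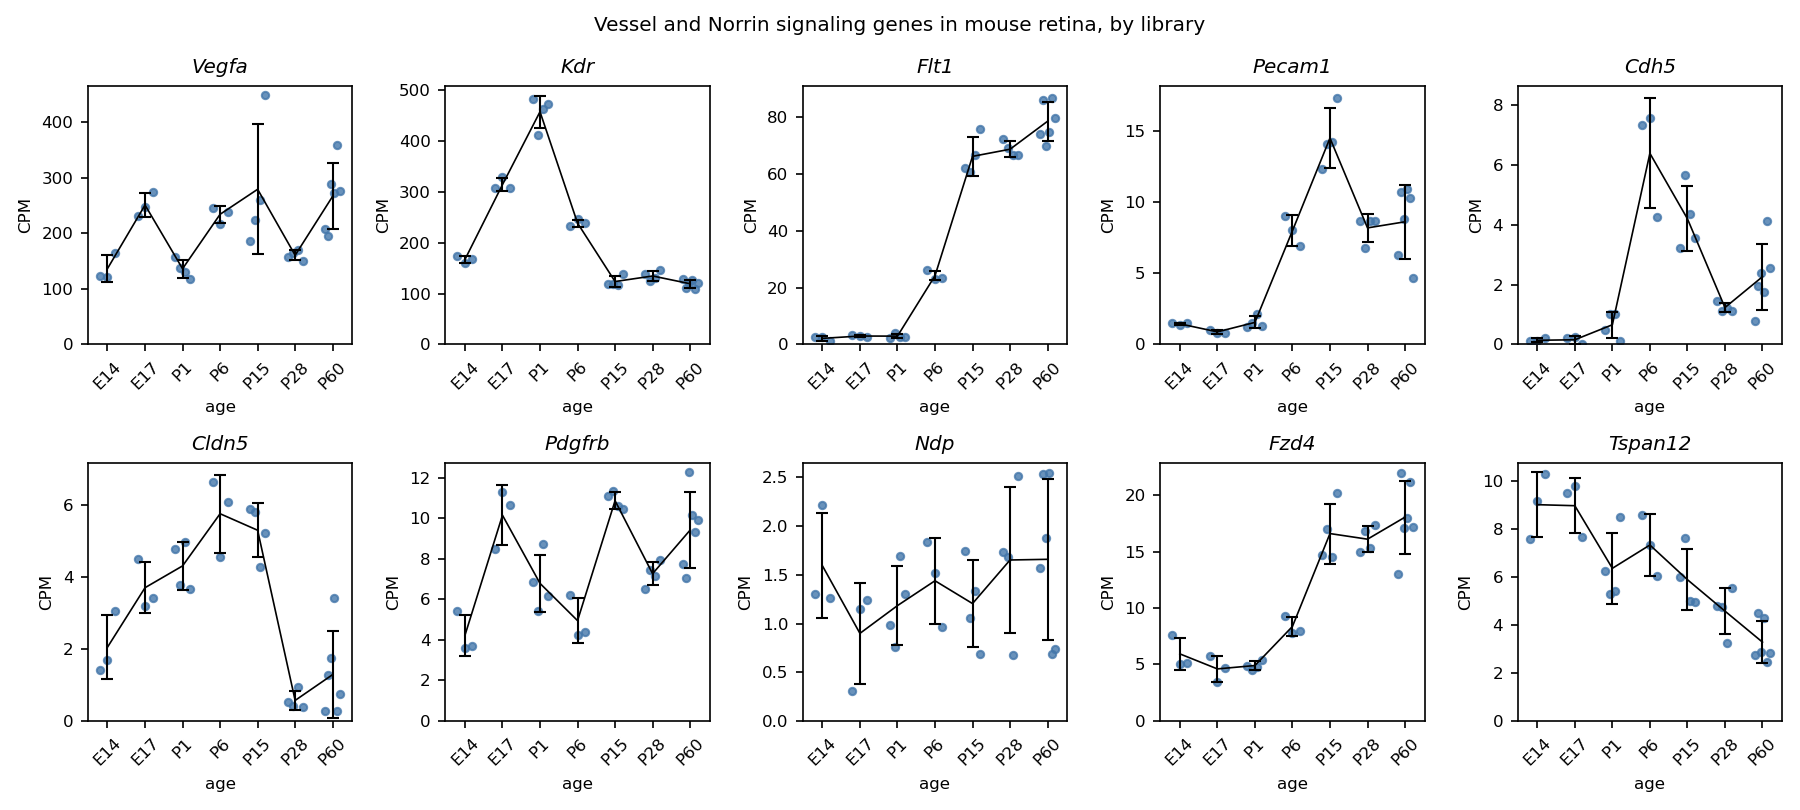
CPM (vertical axes, linear from 0, a scale for each gene) of the 10 genes at the 7 ages (horizontal axes). Points are libraries, black lines follow the age means and error bars are the SD. Kdr peaks at P1 with 411 to 482 CPM, Flt1 stays at or under 3.91 CPM until P1 and reaches 60.4 CPM or more from P15, and Cldn5 drops between P15 and P28.

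Pecam1, Cdh5 and Cldn5 encode junction proteins of endothelial cells. In whole retina, a smaller number of expressing cells and less RNA per cell cannot be told apart, nor can the cell types that hold the RNA. This holds for every gene below. Pecam1 (CD31, chr11:106654217-106750628, minus strand) was at 1.5, 1.37 and 1.47 CPM at E14, 1.02, 0.794 and 0.828 CPM at E17 and 1.23, 1.51, 2.15 and 1.30 CPM at P1. It was at 9.04, 8.0 and 6.89 CPM at P6, 12.3, 14.1, 14.2 and 17.3 CPM at P15, and 8.66, 6.74, 8.66 and 8.67 CPM at P28. The P60 libraries ran from 4.65 through a median of 9.54 to 10.9 CPM. P6 lay above P1 without overlap, and P15 lay above all other ages without overlap. The rise from P1 to P6 was 1.82 (SE 0.21, adjusted p = 1.5e-08 by limma) and that from P6 to P15 was 0.78 (SE 0.21, adjusted p = 0.004). The fall from P15 to P28 (-0.75, SE 0.19, adjusted p = 0.028) ran from 0.0015 to 0.10 in adjusted p over the alternatives, and was lost without any 1 of 7 of the 8 libraries compared, with values of -0.82 to -0.67 over all left-out libraries.

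Cdh5 (VE-cadherin, chr8:104101625-104144511, plus strand) was near the limit of detection before birth. The E14 libraries had 0.10, 0.105 and 0.211 CPM and the E17 libraries 0.204, 0.265 and 0 CPM, which are 0 to 3 reads each. The P1 libraries had 0.491, 1.01, 1.02 and 0.118 CPM. It then stood at 7.35, 7.57 and 4.27 CPM at P6, 3.21, 5.66, 4.38 and 3.57 CPM at P15, and 1.47, 1.12, 1.22 and 1.13 CPM at P28. At P60 it ran from 0.787 through a median of 2.18 to 4.12 CPM. The highest mean was thus at P6, an age earlier than for Pecam1, although the P6 and P15 libraries of Cdh5 overlapped. With each embryonic library at or under 3 reads, a limit that covers counting error only, the mature mean was at least 8.35-fold higher. Cdh5 rose from P1 to P6 (2.16, SE 0.26, adjusted p = 2.8e-08 by limma) and fell from P15 to P28 (-1.20, SE 0.24, adjusted p = 0.0025). With a pseudocount of 0.1 in place of 1 that fall was -1.66 and was not called (adjusted p = 0.062).

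Cldn5, the main claudin of tight junctions in the blood-retina barrier (chr16:18776847-18778262, plus strand, a single exon), differed from both. It was at 1.40, 1.69 and 3.05 CPM at E14, 4.5, 3.18 and 3.42 CPM at E17, and 4.78, 3.78, 4.98 and 3.67 CPM at P1. At P6 it was at 6.64, 4.54 and 6.07 CPM and at P15 at 5.89, 5.79, 4.26 and 5.22 CPM. It then stood at 0.533, 0.421, 0.947 and 0.377 CPM at P28, and ran from 0.262 through a median of 1.0 to 3.42 CPM at P60. E17, P1, P6 and P15 formed a band in which each overlapped its neighbors, and all 4 P28 libraries lay below it. No step from E14 to P15 was called, although the E17 libraries lay above those of E14 without overlap (1.81-fold). That step (0.65, adjusted p = 0.22) was called with the compared ages only (adjusted p = 0.018) and with P60 as replicates 1 to 2 (adjusted p = 0.042). From P15 to P28 Cldn5 fell by 2.01 on the log2 scale (SE 0.27, adjusted p = 1.5e-05 by limma), which is 9.29-fold in mean CPM. The fall was called under every alternative tried, with adjusted p from 3.5e-09 to 0.00019. The 6 P60 libraries were spread widely, from 2 to 31 reads. The fall from the embryonic to the mature ages (-0.45, SE 0.19, adjusted p = 0.029) was not called with median-of-ratios scaling (-0.40, adjusted p = 0.057), without E14 replicate 3 (-0.34, adjusted p = 0.12) or without E17 replicate 1 (-0.39, adjusted p = 0.083).

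Pdgfrb encodes the receptor by which pericytes are recruited to new vessels (chr18:61045150-61085061, plus strand). It had 5.4, 3.59 and 3.68 CPM at E14, 8.49, 11.3 and 10.7 CPM at E17, and 6.87, 5.42, 8.71 and 6.15 CPM at P1. It had 6.22, 4.22 and 4.41 CPM at P6, 11.1, 11.3, 10.6 and 10.4 CPM at P15, 6.53, 7.44, 7.17 and 7.92 CPM at P28, and from 7.04 through a median of 9.63 to 12.3 CPM at P60. There were 2 high ages before P28, E17 and P15, whose libraries overlapped. The rises from E14 to E17 (1.10, SE 0.19, adjusted p = 8.5e-05 by limma) and from P6 to P15 (1.01, SE 0.18, adjusted p = 3.9e-05) were called. The differences between and after these ages were not, at -0.53 (E17 to P1, adjusted p = 0.062), -0.39 (P1 to P6, adjusted p = 0.089) and -0.52 (P15 to P28, adjusted p = 0.091), although each was called under some alternatives, with lowest adjusted p of 0.021, 0.038 and 0.022.

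Ndp, the gene of the ligand Norrin (chrX:16885521-16911774, minus strand), was low in every library, at 3 to 23 reads. It was at 1.30, 2.22 and 1.26 CPM at E14, 0.307, 1.15 and 1.24 CPM at E17, 0.981, 0.756, 1.70 and 1.30 CPM at P1, and 1.84, 1.51 and 0.965 CPM at P6. It was at 1.74, 1.05, 1.34 and 0.687 CPM at P15, at 1.73, 1.69, 0.677 and 2.51 CPM at P28, and from 0.687 through a median of 1.73 to 2.54 CPM at P60. All ages next to each other in the order of their means overlapped. No comparison was called, and the test over all 7 ages gave an adjusted p of 0.55 (limma F test), whereas the other 9 genes had 5.7e-27 to 1e-06. The embryonic to mature difference was 0.15 (95% confidence interval -0.20 to 0.51), an interval that does not show the level to be constant. Ndp is X-linked, and retinas up to P1 came from both sexes. At P1 the sexes lay in different libraries. Replicates 1, 2 and 4 had 10 to 13 reads of Xist and 384 to 433 of Ddx3y, against 9669 and 0 in replicate 3. The P1 library without the Y-linked Ddx3y (0 CPM) and with 1093 CPM of Xist had 1.70 CPM of Ndp, against 0.756 to 1.30 CPM in the other 3. At E14 the library with the most Xist (5943 reads, replicate 2) had the highest Ndp of its age, 2.22 CPM. At E17 the library with the most Xist (5823 reads, replicate 1) had the lowest, 0.307 CPM. Whether Ndp followed sex was not tested.

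Fzd4, the receptor for Norrin (chr7:89404355-89413134, plus strand), was at 7.60, 5.06 and 5.16 CPM at E14, 5.73, 3.44 and 4.66 CPM at E17, and 4.91, 4.54, 4.75 and 5.44 CPM at P1. It was at 9.32, 7.79 and 8.0 CPM at P6, 14.7, 17, 14.5 and 20.2 CPM at P15, 14.9, 16.9, 15.3 and 17.3 CPM at P28, and from 13.0 through a median of 17.6 to 22.0 CPM at P60. The ages up to P1 overlapped, P6 stood alone above them, and the mature ages overlapped. Fzd4 rose from P1 to P6 (0.66, SE 0.17, adjusted p = 0.0021 by limma) and from P6 to P15 (0.90, SE 0.17, adjusted p = 9.3e-05), and no fall followed at P28 (-0.03, SE 0.16, adjusted p = 0.97).

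Tspan12, which encodes the co-activator that associates with Frizzled-4 (chr6:21771395-21852515, minus strand), went down. The E14 libraries had 7.60, 9.18 and 10.3 CPM, the E17 libraries 9.51, 9.79 and 7.66 CPM, and the P1 libraries 6.26, 5.29, 5.43 and 8.52 CPM. At P6 it was at 8.62, 7.35 and 6.07 CPM, at P15 at 6.02, 7.64, 4.99 and 4.95 CPM, and at P28 at 4.80, 4.77, 3.25 and 5.53 CPM. At P60 it ran from 2.47 through a median of 2.85 to 4.51 CPM. Each age overlapped the next in order, and no single step was called. The fall from the embryonic to the mature ages was called (-0.88, SE 0.13, adjusted p = 4e-07 by limma), with the lowest embryonic library at 7.60 and the highest mature one at 7.64 CPM. An antisense gene shares 98 exon bases with Tspan12, and whether counting used the strand is not given in the sources used here. Per kilobase of exon, Tspan12 was at 2.73 and Fzd4 at 0.884 CPM per kb at E14, and at 0.994 and 2.69 CPM per kb at P60. In whole retina the genes of the receptor and its co-activator thus exchanged their order between these ages. That order was not tested, nor was whether the same cells held both.

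Counted together, 6 of the 10 genes were higher and 3 lower in the mature than in the embryonic retina, while 35% of all features tested were higher and 40.4% lower. From P1 to the mature ages the same counts were 6 and 3, beside 28.9% and 39% of all features. The share of the 10 that was lower was thus no more than that of all features in either comparison. The median difference of the 10 genes was 0.34 and 0.55, beside -0.06 and -0.12 for all features. Median-of-ratios scaling moved the latter from -0.12 to -0.02, a shift of the whole scale against which changes from P1 should be read, and under it the P1 to mature fall of Tspan12 (-0.42, SE 0.15, adjusted p = 0.014 by limma) was not called (-0.31, adjusted p = 0.071).

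Among neighboring ages, 3 of the 10 genes rose and 0 fell from E14 to E17 (7.56% and 3.02% of all features), and 1 rose and 1 fell from E17 to P1 (5.77% and 3.43%). From P1 to P6, 5 rose and 1 fell, beside 18% and 20.4% of all features. From P6 to P15, 4 rose and 1 fell, beside 14.4% and 19%. From P15 to P28, 0 rose and 4 fell, beside 1.14% and 1.58% of all features, so that a step in which few features moved held falls of Vegfa, Pecam1, Cdh5 and Cldn5. That count was 2 without P15 replicate 4 and 2 without P28 replicate 4. From P28 to P60 1 rose and 0 fell, beside 4.8% and 8.11%. That count was 0 with P60 replicates 1 and 2 alone and 4 with replicates 3 to 6 alone (3 higher and 1 lower), when Cdh5, Pdgfrb and Kdr were also called.

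**Figure D2:**
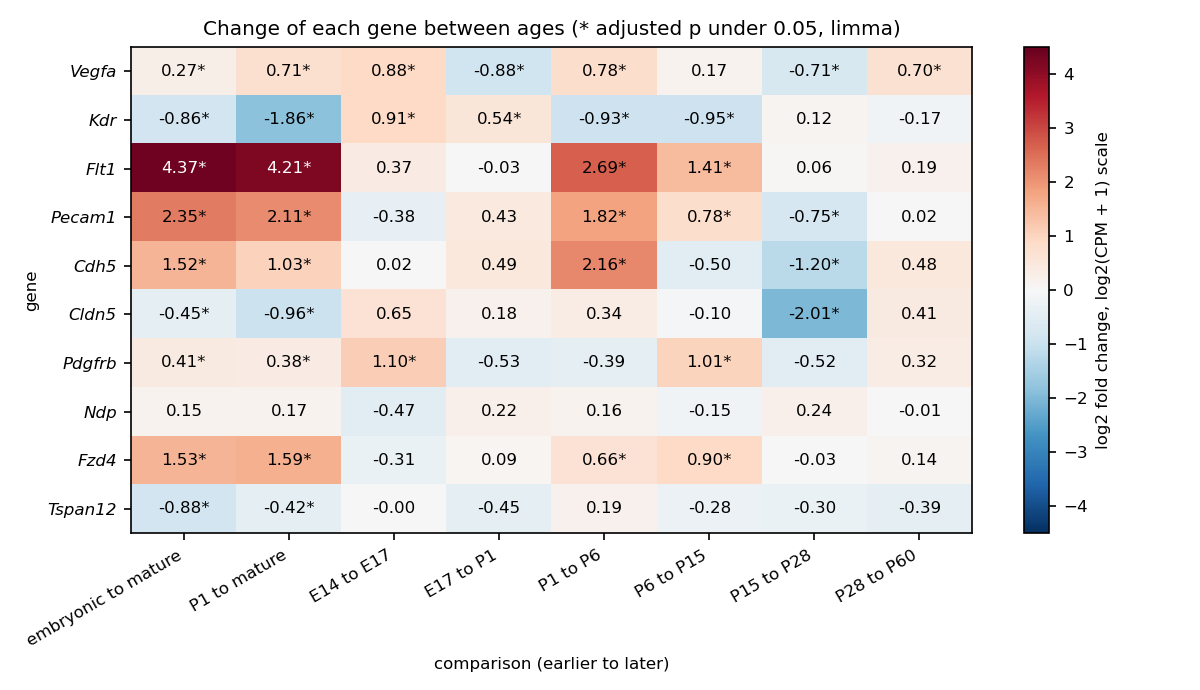
Log2 fold change on the log2(CPM + 1) scale (color, with the value printed) of each of the 10 genes in the 2 broad comparisons and the 6 steps between neighboring ages, where red is higher at the later age and a star marks an adjusted p under 0.05 by limma. The steps to P6 hold the rises of Flt1 (2.69), Cdh5 (2.16) and Pecam1 (1.82), and the step from P15 to P28 holds the fall of Cldn5 (-2.01).

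Many other genes of the endothelium rose between P1 and P6. The endothelial list holds 20 genes, 5 of them already described (Kdr, Flt1, Pecam1, Cdh5 and Cldn5). Of the other 15, 11 were tested, and 10 rose and 0 fell in that step (90.9% higher, beside 18% of all features), with a median of 0.84. With the 5 included, 13 of 16 rose and 1, Kdr, fell, with a median of 1.0. The angiopoietin receptor Tek went from a mean of 0.519 to 4.80 CPM (1.95, adjusted p = 5.7e-09 by limma) and the junction gene Esam from 0.381 to 4.68 CPM (2.06, adjusted p = 2.1e-09). Tie1, a partner of Tek, went from 0.152 to 2.17 CPM (1.46, adjusted p = 2e-08), and the ETS factor Erg from 0.272 to 1.84 CPM (1.16, adjusted p = 8.6e-05). From the embryonic to the mature ages 11 of the 11 others rose, beside 35% of all features. With the 5 included, 14 of 16 rose and 2, Kdr and Cldn5, fell, with a median of 0.95, or 0.87 with genes at the floor set to their bound. Of the 11 others, all but Egfl7 and Ramp2 were under 1 CPM in every embryonic library, so they passed the filter only through later ages. Such genes could hardly be called lower, so the counts here and from P1 to P6 were partly set by the filter. The 4 untested genes, Emcn, Icam2, Sox18 and Ecscr, had means of at most 1.13 CPM at any age. Ramp2, the most abundant of the list, shares 1103 exon bases with Vps25 on the same strand, so its value is uncertain.

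From P15 to P28, 0 of the 16 rose and 7 fell, with a median of -0.71 beside -0.02 for all features. Without the 5 genes already described, 4 of 11 fell (36.4%, beside 1.58% of all features). Besides Pecam1, Cdh5 and Cldn5 these were Tek, Tie1 (-1.25, adjusted p = 7.7e-06), the TGF-beta co-receptor Eng (-0.92, adjusted p = 0.016) and the guidance receptor Robo4 (-0.74, adjusted p = 0.033), by limma. Tie1 and Robo4 were under 1 CPM in every library after P15, so they passed the filter only through earlier ages. Esam was at 9.38 CPM at P15 and 7.97 CPM at P28 (-0.21, not called), and Flt1 was at 66.1 and 68.6 CPM. In the same step the summed level of 5 pigment cell markers went from 18.2 to 23.2 CPM at P15 to 5.86 to 9.27 CPM at P28, with 2 of the 4 tested lower (Dct and Pmel) and Mlana too low to test, and their part in the falls was not tested. Of 17 endothelial genes with a mean of at least 1 CPM at some age, 7 were highest at P6 and 8 at P15.

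Mural cells, the pericytes and smooth muscle cells that wrap vessels, also had genes with their highest mean at P15. Besides Pdgfrb the list holds 13 genes, of which 12 were tested. From the embryonic to the mature ages 7 rose and 1 fell (58.3% and 8.33%, beside 35% and 40.4% of all features), with a median of 0.50, or 8 and 1 of 13 with Pdgfrb, with a median of 0.41. Rgs5, Kcnj8, Abcc9, Des and Myh11 were under 1 CPM in every embryonic library, so they passed the filter only through later ages. Rgs5, a pericyte regulator of G protein signaling, was at 0 to 0.621 CPM in the embryonic libraries, 2.7 to 4.16 CPM at P1, 50.1 to 72.6 CPM at P6, 81.5 to 94.4 CPM at P15, 26.3 to 34.9 CPM at P28 and 18.6 to 34.1 CPM at P60. Its rise from P1 to P6 was 3.82 (adjusted p = 5.6e-18 by limma) and its fall from P15 to P28 -1.44 (adjusted p = 8.1e-07), both without overlap. The pericyte channel subunit Abcc9 rose (2.48, adjusted p = 3.2e-09) and fell (-1.41, adjusted p = 0.00057) in the same steps. From P15 to P28 Cspg4 and Kcnj8 also fell, and Vtn, which photoreceptors express as well, rose to a mean of 192 CPM. Notch3, a mural receptor that neural progenitors express too, fell from the embryonic to the mature ages (-2.14, adjusted p = 4.8e-16), with means of 38.5 CPM at E14 and 4.73 CPM at P6. The contractile genes Acta2, Myh11 and Cnn1 were not called from the embryonic to the mature ages.

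**Figure D3:**
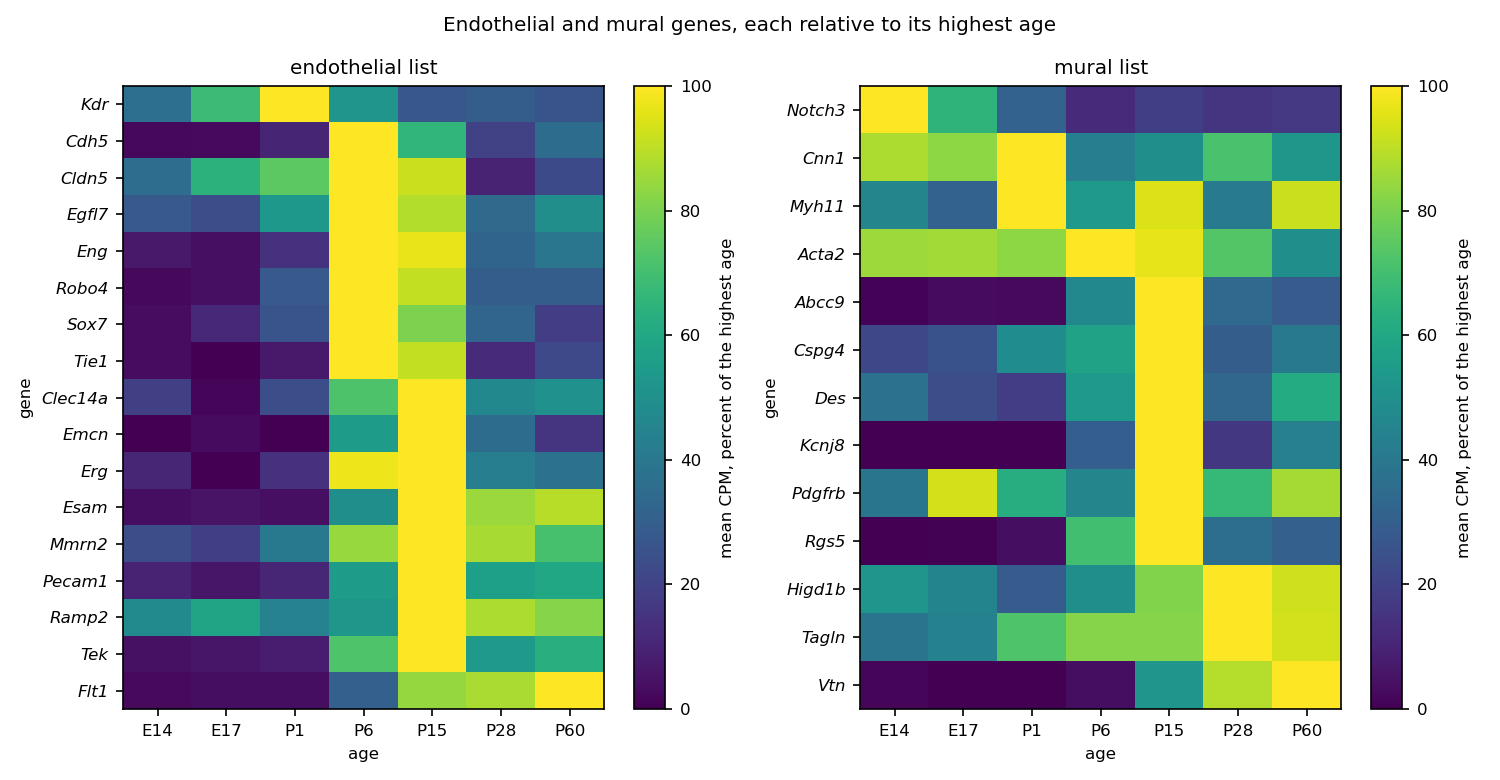
Mean CPM at each age as a percent of the highest age (color) for 17 endothelial genes (left) and 13 mural genes (right) with a mean of at least 1 CPM at some age, ordered by the age of the maximum. Of the endothelial genes 7 are highest at P6 and 8 at P15, while Kdr is highest at P1 and Flt1 at P60. Of the mural genes 6 are highest at P15.

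Other components and targets of the Norrin signal moved in both directions in whole retina, where the cells that held their RNA were not told apart. Besides Ndp, Fzd4 and Tspan12 the list holds 12 genes, of which 11 were tested. From the embryonic to the mature ages 4 rose and 7 fell (36.4% and 63.6%, beside 35% and 40.4% of all features), with a median of -0.52. With the 3 genes included, 5 of 14 rose and 8 fell, with a median of -0.49. Of the 4 that rose, Sox17 and Sox7 were under 1 CPM in every embryonic library, so they passed the filter only through later ages. They could hardly be called lower, so that count was partly set by the filter. The co-receptor gene Lrp5 fell in that comparison (-3.37, adjusted p = 4.4e-24 by limma), with means of 92.5 CPM at E14 and 9.48 CPM at P60. Lrp6, a related co-receptor, fell (-0.86, adjusted p = 2.1e-18), with means of 247 and 125 CPM at these ages, as did the beta-catenin gene Ctnnb1 (-1.56, adjusted p = 3.5e-25), with means of 387 and 109 CPM. The E14 libraries held only 1 to 2 reads of Cdh5, and whether these falls took place in endothelial cells was not tested. The Wnt target genes split. Axin2 (1.52, adjusted p = 5.9e-17) and Apcdd1 (2.05, adjusted p = 3.6e-18) rose, the latter with its highest mean, 32.1 CPM, at P6, whereas Lef1 (-1.67, adjusted p = 8.5e-13) and Nkd1 (-1.59, adjusted p = 5.9e-16) fell. Sox17, an endothelial factor of the Norrin response, was at 0 CPM in all libraries up to P1 and at 1.38 to 2.16 CPM at P6. Sox7 rose from P1 to P6 (0.64, adjusted p = 0.0062), and Sox18 was too low to test.

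A list of VEGF, Notch and angiopoietin genes holds 22 besides Vegfa, Kdr and Flt1, and 20 of them were tested. From the embryonic to the mature ages 5 rose and 10 fell (25% and 50%), with a median of -0.26, or 7 and 11 of 23 with those 3 genes, with a median of -0.24. These shares lie near the 35% and 40.4% of all features. Tek, Flt4 and Aplnr were under 1 CPM in every embryonic library, so they passed the filter only through later ages. Such genes could hardly be called lower, so the counts were partly set by the filter. Dll4, a Notch ligand of the sprouting tip cell, fell from P1 to P6, with means of 26.3 CPM at P1 and 4.72 CPM at P6 (-2.25, adjusted p = 2.7e-10 by limma), as did the chemokine receptor gene Cxcr4, with 67.8 and 8.76 CPM (-2.82, adjusted p = 1.5e-14). Both are also expressed by neural progenitors or newborn neurons, as is Notch1, which fell from 492 to 115 CPM (-2.10, adjusted p = 9.9e-17). The apelin receptor Aplnr was restricted in time. It was at 0 to 0.452 CPM up to P1, 2.48 to 3.96 CPM at P6, 1.2 to 2.37 CPM at P15 and 0 CPM in all 4 P28 libraries, each of which allows up to 3 reads. Its rise to P6 (1.69, adjusted p = 9.7e-10) and its falls to P15 (-0.51, adjusted p = 0.02) and P28 (-1.52, adjusted p = 2.2e-07) were called. Its ligand Apln also rose to P6 (1.06, adjusted p = 0.0045) and fell to P28 (-1.45, adjusted p = 0.0015). P15 replicate 4 held 60 reads of Apln, against 17 to 35 in the other P15 libraries. Jag1, a Notch ligand that opposes Dll4 in sprouts and is also made outside vessels, rose from a mean of 6.32 CPM at P1 to 30.1 CPM at P6 (2.10, adjusted p = 3.1e-14), and Flt4, which encodes VEGFR3, from 0.473 to 4.15 CPM (1.82, adjusted p = 3.1e-08).

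Among barrier genes besides Cldn5, 10 of 11 were tested, and 4 rose and 5 fell from the embryonic to the mature ages (40% and 50%), with a median of -0.36. With Cldn5, 4 of 11 rose and 6 fell, with a median of -0.45. These shares also lie near those of all features (35% and 40.4%). The efflux pump gene Abcb1a rose (1.94, adjusted p = 1.2e-11 by limma), as did the tight junction gene Ocln (1.63, adjusted p = 2.6e-11) and the transporters Slco1a4 (3.18, adjusted p = 5.3e-18) and Slco1c1 (1.83, adjusted p = 2.8e-12). Of these, Ocln, Slco1a4 and Slco1c1 were under 1 CPM in every embryonic library, so they passed the filter only through later ages. They could hardly be called lower, so the count of rises was partly set by the filter. Slco1a4 had 0 to 3 reads at P1 and 7 to 8 reads at P6. It was at 0.757 to 1.10 CPM at P6 and 7.42 to 15.1 CPM at P15, so most of its rise came after P6. Slc2a1, the glucose transporter of barrier endothelium that neural cells express too, fell (-1.69, adjusted p = 1.7e-20), as did the lipid transporter Mfsd2a (-0.72, adjusted p = 6e-05). Plvap, which marks fenestrated endothelium such as that of the choroid, rose (1.26, adjusted p = 4.1e-10), with means of 0.348 CPM at E14 and 2.91 CPM at P60. Plvap too was under 1 CPM in every embryonic library and passed the filter only through later ages. Markers of the retinal pigment epithelium, which adjoins the choroid, summed to 3.79 to 6.85 CPM in the embryonic libraries and to 22.6 to 99.0 CPM in the mature ones, with 6 of 7 higher, and their part in the rise of Plvap was not tested. Among these markers, Rpe65 and Slc6a20a were under 1 CPM in every embryonic library and passed the filter only through later ages.

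Vegfa is a target of the hypoxia response, and 8 other genes of that list were tested. From E14 to E17, 5 of the 8 rose and 0 fell, beside 7.56% and 3.02% of all features. From E17 to P1, 1 rose and 4 fell, beside 5.77% and 3.43%. The mitochondrial gene Bnip3 went from a mean of 13.0 to 27.9 and back to 11.5 CPM over these ages, the kinase gene Pdk1 from 46.3 to 76.8 and to 29.3 CPM, and the oxygen sensor Egln3 from 2.65 to 4.95 and to 1.74 CPM. All 6 of these steps were called, with adjusted p of 0.04 or less by limma. Slc2a1 fell only in the second step, and Epas1, which encodes HIF-2alpha, rose in both. From P1 to P6, 5 of the 8 rose and 2 fell, beside 18% and 20.4% of all features. Of 6 astrocyte genes, 3 rose and 1 fell from P1 to P6, and 5 rose and 1 fell from the embryonic to the mature ages (35% and 40.4% of all features). Aqp4 of that list was under 1 CPM in every embryonic library, so it passed the filter only through later ages. Pdgfra, the receptor that guides the astrocyte template, had a mean of 2.38 CPM at E14 and a maximum of 41.9 CPM at P6, and Gfap rose from E17 to P1 (1.40, adjusted p = 0.0029). Pax2, a transcription factor of the astrocyte lineage, fell from P1 to P6 (-0.61, adjusted p = 0.028), with means of 4.74 CPM at E14, 1.52 CPM at P6 and 0.202 CPM at P60. Hemoglobin and red cell genes summed to 10.7 to 15.5 CPM at P1 and 39.6 to 50.3 CPM at P6, in the same step as the rise of the endothelial genes. Most of the P1 sum was the red cell gene Alas2, with 77 to 116 reads at P1 and 155 to 184 at P6. The hemoglobin gene Hba-a1 had 5 to 12 reads at P1 and 113 to 159 at P6. Fibroblast and choroid markers summed to 19.6 to 21.6 CPM at P1 and 46.2 to 49.4 CPM at P6. Most of that sum was Pdgfra, which is also on the astrocyte list, and the other 5 markers found summed to 2.6 to 5.29 CPM and 4.43 to 7.63 CPM. The part of blood and fibroblast RNA in that rise was not tested.

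To compare genes relative to endothelial markers, each of 8 genes was related to Pecam1 and Cdh5 in the same library, as the log2(CPM + 1) value minus the mean of these 2. The 6 embryonic and 14 mature libraries were compared by exact two-sided permutation tests with Benjamini-Hochberg adjustment over the 8 genes, for which 5.2e-05 is the smallest p possible. Cldn5 lay 1.25 ± 0.52 (SD, n = 6) above the reference in the embryonic libraries and -1.18 ± 0.65 (n = 14) relative to it in the mature ones (exact p = 5.2e-05, adjusted 6.9e-05). Kdr differed by -2.79, Tspan12 by -2.84, Mfsd2a by -2.63 and Pdgfrb by -1.50, and Flt1 by 2.48, all at the same smallest exact p. Fzd4 differed by -0.37 (exact p = 0.065), a value that was -0.77 with Pecam1 alone and 0.029 with Cdh5 alone as the reference. It was called with Pecam1 alone, with a pseudocount of 0.1 (-1.45), and without E17 replicate 2 (-0.46), P28 replicate 2 (-0.41) or P28 replicate 4 (-0.40). Plvap differed by -0.62 (exact p = 0.032, adjusted 0.036), which was lost with Cdh5 alone as the reference (-0.22), with a pseudocount of 0.1 (-0.75), and without any 1 of 9 libraries (-0.62 to -0.51 in those 9): E14 replicate 3, E17 replicates 1 and 3, P15 replicates 1 to 4, P28 replicate 1 and P60 replicate 5. A ratio within a library shows unequal change of 2 genes, and the reference itself was low in the embryonic libraries. Pecam1 rose by 2.35 and Cdh5 by 1.52 in this comparison by limma. A gene that stayed level, fell or rose by less than the mean of these 2 would therefore come out negative. Pdgfrb (0.41), Fzd4 (1.53) and Plvap rose in this comparison by limma, yet had negative ratios. For all such genes the ratio adds little to the calls above.

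**Figure D4:**
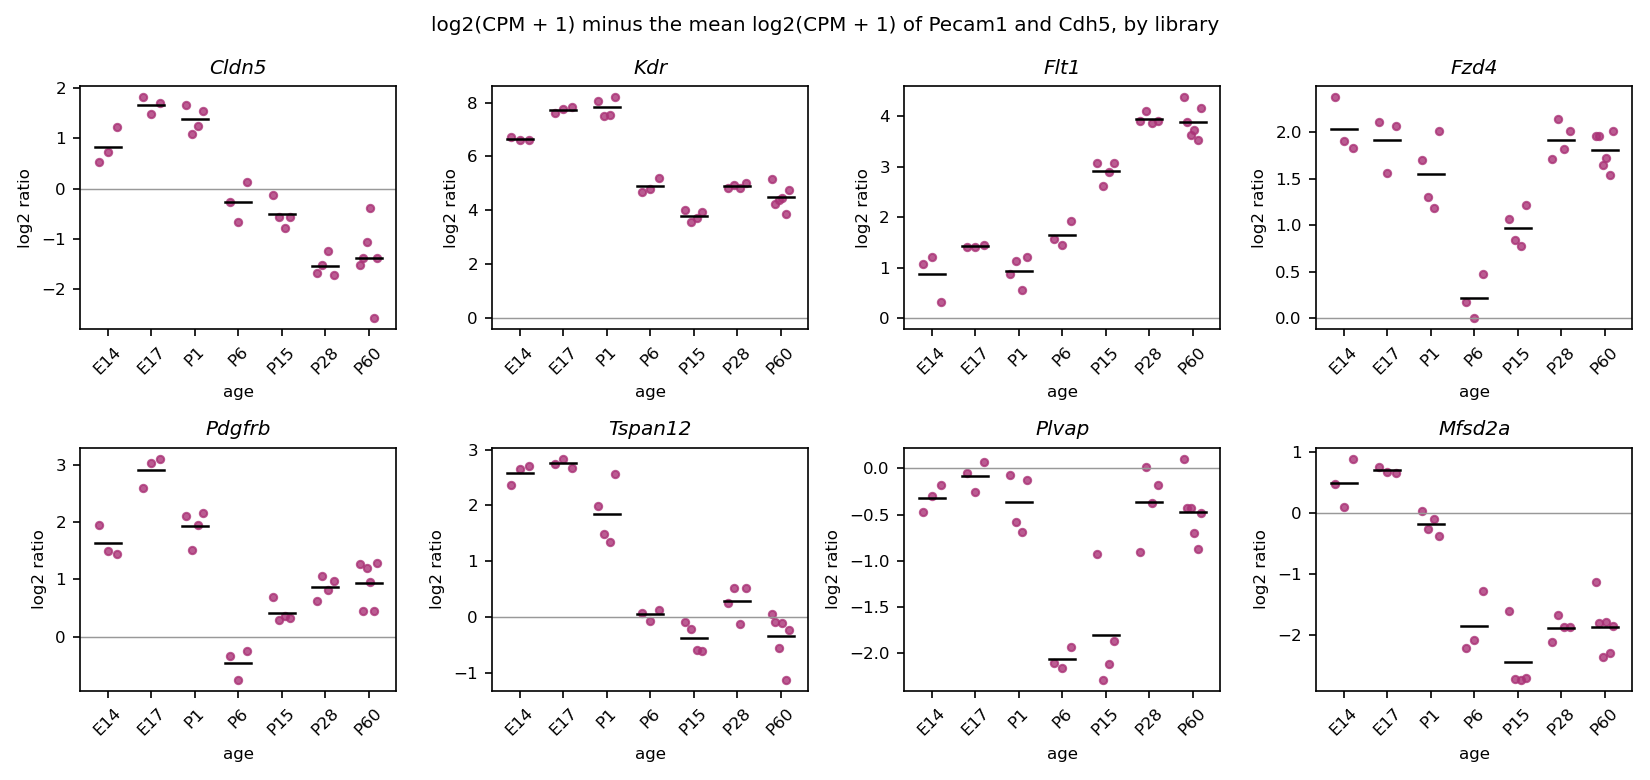
Log2(CPM + 1) of 8 genes minus the mean log2(CPM + 1) of Pecam1 and Cdh5 in the same library (vertical axes) at the 7 ages (horizontal axes), with points for libraries and bars for means. Cldn5 has means of 1.39 at P1, -0.26 at P6 and -1.54 at P28, and Flt1 has means of 0.94 at P1 and 3.94 at P28.

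The genes whose pattern over the 27 libraries was most like that of Cdh5 among 17424 features were Col5a3, Capn7, Itpk1, Rhbdf2 and Apex2 (Pearson r of 0.91 to 0.92). For Vegfa they were Srcin1, Erc2, Nav1, 1700024P12Rik and Senp3 (0.77 to 0.79). For Ndp they were ND5, ND6, Xpnpep3, Sgsh and Ccdc166 (0.54 to 0.64), a weak likeness in few reads. Chosen after their values were seen, those of Kdr included Sox2ot (0.985) and Fbxw7 (0.98), those of Flt1 Gnb5, Pde6a and Gucy2f (each 0.99), and those of Pecam1 Myo10 (0.97) and the endothelial phosphatase gene Ptprb (0.96). Likewise, those of Fzd4 included Arl4d and Gnat1 (each 0.97), and those of Tspan12 included Lyplal1 (0.90). Pde6a, Gucy2f and Gnat1 are photoreceptor genes. These correlations describe libraries that share age, and with it the makeup of cell types.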

How the data were processed

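RNA-seq of whole retina was measured in 27 libraries. Per the labels and the methods, the authors isolated RNA with TRIzol, used a SMARTer kit for total RNA, sequenced single-end reads on a HiSeq instrument and aligned them with STAR to mm10 (GRCm38). The deposited values are CPM. The annotation counted is not given in the sources used here. There are 38168 features, of which 14905 lack a gene identifier. Every value was a whole multiple of what 1 read is worth (100.0%, within 0.05 reads), which gave the reads of each library.

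Ages and replicate numbers came from the sample titles. Features that reached 1 CPM in 3 or more libraries were tested two-sided on log2(CPM + 1) by limma 3.58.1 with a mean-variance trend (R 4.3.3), in 1 fit of the 7 ages. Exact permutation tests used scipy 1.17.1, and tables and figures Python 3.11.15, numpy 2.4.6, pandas 2.3.3 and matplotlib 3.10.9. Alternatives were a pseudocount of 0.1, no filter, a filter at a mean of 10 CPM, median-of-ratios scaling, edgeR 4.0.16 with TMM on recovered reads, the replicate number as a block, compared ages only, summed entries of a symbol, a minimum log2 fold change of 1, a single reference gene, and leaving out each library. EdgeR without E14 replicate 1 and P60 as replicates 1 to 2 or 3 to 6 were added after the data were seen. On simulated reads with 200 changed genes, limma recovered 200 of 200 with 11 false calls from the embryonic to the mature ages among 30619 features, and 200 with 12 false calls from P15 to P28 among 30538. No low features were among the changed genes, which all changed by the same factor, up or down. The simulated spread was the same for all genes, with no outlying library. The recovery thus does not cover low genes such as Ndp and Cdh5, smaller changes or libraries that stand apart.

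Genes named are the 10 genes, genes of marker and pathway lists, and the 5 features most like Cdh5, Ndp and Vegfa. Those like Kdr, Flt1, Pecam1, Fzd4 and Tspan12 were named after their values were seen, and list counts without the 10 genes were added then. Genes, lists and tests were chosen with earlier results of these data known. Promoter sequences and motif counts are from RefSeq (GRCm38.p6), gene positions and exon lengths from GENCODE vM21.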

Additional observations from a re-analysis of the deposited data

Results flagged for a closer look

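Of the 40 gene and age groups with 4 to 10 libraries, 2 held a library far from the others by Dixon's criterion, and chance alone marks about 1 in 20 groups. Kdr was at 139 CPM in P15 replicate 4, against 118 to 120 CPM in the other 3 libraries of that age. Pecam1 was at 6.74 CPM in P28 replicate 2, against 8.66 to 8.67 CPM in the other 3.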

How the results depend on the processing

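Pools of unstated size, and 3 to 23 reads of Ndp and 0 to 3 reads of Cdh5 before birth, limit these results, and a minimum log2 fold change of 1 or a filter at a mean of 10 CPM lowers counts by construction, since fewer genes can pass. From the embryonic to the mature ages 9 of the 10 genes changed in the reported fit, 4 with that minimum and 4 with that filter (4 tested), and 7 to 9 with each library left out. With the filter 3 endothelial, 3 mural and 8 Norrin pathway genes changed, in place of 16, 9 and 13. From P1 to the mature ages 9 became 5 with the minimum and 4 with the filter. With the minimum, 3 became 1 from E14 to E17, 2 became 0 from E17 to P1, 6 became 3 from P1 to P6, 5 became 2 from P6 to P15 (3 with the filter), 4 became 2 from P15 to P28 (1 with the filter, 2 with a pseudocount of 0.1), and 1 became 0 from P28 to P60. That last count was 2 with the filter, 0 with the compared ages only, 0 with P60 replicates 1 to 2 and 4 with replicates 3 to 6. With each library left out the counts ran from 2 to 4 from P15 to P28 (2 without P15 replicate 4 or P28 replicate 4) and from 1 to 3 from P28 to P60 (3 without P60 replicate 1, 2 without P60 replicate 2). Where no construction is named, the cause was not tested.

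Values that changed sign were of genes not called in the step. Cdh5 from E14 to E17 was -0.067 with a pseudocount of 0.1. Ndp from P28 to P60 was 0.031 with median-of-ratios scaling, 0.28 with the replicate block, 0.064 with edgeR, 0.062 with edgeR without E14 replicate 1 and 0.23 with P60 replicates 1 to 2. The ratio of Fzd4 was 0.029 with Cdh5 alone. With single libraries left out, ranges crossed 0 for Cdh5 (-0.052 to 0.12) and Tspan12 (-0.11 to 0.10) from E14 to E17, for Flt1 (-0.14 to 0.046), Ndp (-0.026 to 0.36) and Fzd4 (-0.065 to 0.23) from E17 to P1, for Vegfa from P6 to P15 (-0.083, without P15 replicate 4, to 0.34), for Fzd4 from P15 to P28 (-0.090 to 0.062), and for Pecam1 (-0.059 to 0.16) and Ndp (-0.22 to 0.14) from P28 to P60. The P1 to mature rise of Pdgfrb was not called without P1 replicate 2 (0.29, adjusted p = 0.082 by limma), nor the fall of Tspan12 without P1 replicate 4 (-0.30, adjusted p = 0.12) or with edgeR (-0.37, adjusted p = 0.064).

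Replicate numbers did not pair the samples. Over 69 pairs of libraries with the same number at different ages, deviations from the age means correlated at -0.13 to 0.17 (median -0.0018), with 3 pairs over 0.1. With the replicate number as a block, 8 of the 10 genes changed from the embryonic to the mature ages in place of 9, Vegfa being at 0.17 (adjusted p = 0.17), 10 mural genes in place of 9, and the counts of the 10 genes in every other comparison were the same as without the block.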
